A study of Mus musculus with 30 samples.

Results

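Krt10 and Fam25c, the latter listed by the study under its older symbol 2200001I15Rik, were followed over all 30 arrays of a survey of adult mouse tissues. They are 2 genes of the 25030 probes in the authors' value table, and each was read by 1 probe with 1 spot per array. Both were chosen by their log2 ratios on these same arrays, known to be high in skin and stomach, so their levels are a description and carry no test. Total RNA came from male C57BL/6 mice of 28 weeks per the labels. The 15 tissues, with 2 arrays each, were skin, stomach, small and large intestine, bladder, kidney, liver, lung, heart, muscle, bone, fat, eyes, cerebellum and brain cortex. The tissue RNA was labelled with Cy3 and hybridised with a Cy5-labelled reference shared by all arrays, a pool of cultured mouse cell lines mixed with embryonic stem cell RNA, and dyes were not swapped. Replicates are said to be from different animals, but the design text counts a single replication for bone and for fat although 2 arrays of each are labelled. RNA was taken from whole pieces of tissue, so a lower value from fewer cells of a type and one from less RNA per cell cannot be told apart.

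Stratified epithelia are sheets of several cell layers that line surfaces under mechanical stress: the epidermis, the mucosa of the mouse forestomach, the cornea and, in its transitional form, the wall of the bladder. Cells divide in the basal layer and differentiate as they move outwards. Keratin 10, the product of Krt10, is a type I keratin that replaces the basal keratins when epidermal cells leave the basal layer, and it builds filaments together with keratin 1. Fam25c belongs to the FAM25 family of small proteins, for which less is established. In GRCm38.p6 the RefSeq gene Krt10 spans chr11:99385254-99397449 and Fam25c spans chr14:34351882-34358339, both on the minus strand, and no other gene of the RefSeq table overlaps either span.

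The 60-base probes are shown because every value below rests on them. Gene names come from the study's probe lists, and the probes were not placed on a genome here. None of the other 42005 probes of the array shares a stretch of 20 bases with either of them on any strand.

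Krt10 probe: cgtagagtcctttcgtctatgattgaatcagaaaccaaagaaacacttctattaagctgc
Fam25c probe: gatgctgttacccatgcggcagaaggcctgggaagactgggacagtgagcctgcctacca

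The promoters of the 2 genes, from 250 bases before to 50 bases after the RefSeq start site, are shown because the 2 genes were high together in skin and stomach. The start is that of the promoter table and lies inside each gene span given above, not at its upstream end. The promoters are given 5′ to 3′ on the minus strand of GRCm38.p6, at chr11:99389315-99389614 for Krt10 and chr14:34355344-34355643 for Fam25c. Capitals mark the letters TATAAA in both and TGACTCA in Fam25c.

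Krt10 promoter: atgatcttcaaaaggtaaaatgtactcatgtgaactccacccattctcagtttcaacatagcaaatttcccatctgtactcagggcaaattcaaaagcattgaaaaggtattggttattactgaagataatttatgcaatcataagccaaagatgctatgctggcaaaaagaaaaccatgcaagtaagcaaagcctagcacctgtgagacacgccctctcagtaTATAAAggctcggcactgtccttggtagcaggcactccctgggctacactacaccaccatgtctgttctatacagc
Fam25c promoter: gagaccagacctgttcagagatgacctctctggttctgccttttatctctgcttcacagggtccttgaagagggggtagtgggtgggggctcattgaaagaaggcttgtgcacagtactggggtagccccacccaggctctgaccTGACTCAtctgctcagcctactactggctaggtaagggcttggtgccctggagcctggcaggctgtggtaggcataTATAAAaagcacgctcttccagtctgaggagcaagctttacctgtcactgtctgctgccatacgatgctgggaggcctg

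The letters TATAAA, the core of the TATA box that positions the start of transcription at many tissue-specific genes, begin 26 bases before the start site of Krt10 and 29 bases before that of Fam25c. On either strand they occur in 13.62% of the 32851 promoters of the table, and on the gene's own strand between 40 and 20 bases before the start in 1.99%. The letters TGACTCA, which AP-1 factors can bind, begin 105 bases before the start of Fam25c, occur in 5.2% of all promoters on either strand and are not in the window of Krt10. CCAAT was found in the Krt10 window alone and is held by 37.41% of promoters, CACCC was found in both and is held by 57.52%, and GGGCGG was found in neither. A match of letters describes the sequence and is no evidence of a bound factor.

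Krt10 was highest in skin and stomach, far above the other tissues. A level here is log2 of Cy3 over Cy5 after loess within each array. A value of 0 thus lies on the trend of that array at that brightness and does not mean equal signal. Liver replicate 1, for example, had a Cy3 signal of 526 and a Cy5 signal of 1545 and read 0.48. The skin arrays read 5.54 and 5.34 and the stomach arrays 4.64 and 4.66. All 4 lay above the other 26 arrays, of which the highest, brain cortex, read 1.50 and 1.53. Such a separation of skin and stomach from every other array was met by 0.662% of all probes with complete values past the filter, a share given for scale since the gene was chosen for this pattern. Skin exceeded the mean of the other 14 tissues by 4.73 ± 0.15 (SE) and stomach by 3.88 ± 0.15. The mean of skin was 0.79 ± 0.20 (SE) above that of stomach, a lead that changed with the scaling, as given below.

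Below these tissues Krt10 fell off in small steps. Cerebellum read 1.24 and 1.26, kidney 1.15 and 1.21, and eyes 0.98 and 0.99. Bladder read 0.52 and 0.70, liver 0.48 and 0.55, and heart 0.42 and 0.39. These values are close to each other: the mean of brain cortex was 0.27 ± 0.20 (SE) above that of cerebellum, and the mean of cerebellum 0.07 ± 0.20 above that of kidney. Muscle read 0.22 and 0.24, fat 0.12 and 0.10, and lung -0.15 and -0.12. Small intestine read -0.02 and -0.33, large intestine -0.29 and -0.98, and bone -0.89 and -0.19. The arrays of bladder and liver overlapped, as did those of lung, small intestine, bone and large intestine, each with its neighbour in the order. The pooled SD between arrays of a tissue was 0.20, and the gaps from liver to heart, heart to muscle and muscle to fat were each smaller than that. That SD pools all 15 tissues, with 0.50 in bone and 0.49 in large intestine against 0.05 in liver and 0.01 in muscle. The arrays did not overlap from liver to heart, heart to muscle or muscle to fat. Brain cortex was 2.15 ± 0.20 (SE) above large intestine, the tissue of the lowest mean.

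Fam25c was high in skin, bladder and stomach, and also in liver and eyes; the order of skin and bladder changed with the scaling, as given below. Skin read 5.59 and 5.28, bladder 4.30 and 4.31, and stomach 4.04 and 4.17. Liver, which has no stratified epithelium, read 3.32 and 3.38. Eyes read 2.15 and 1.64, and kidney stood between the groups at 0.04 and -0.64. The label of a stratified epithelium gene does not cover the liver level of Fam25c, nor the Krt10 levels of bladder and eyes below that of brain cortex. The 8 arrays of skin, bladder, stomach and liver lay above the other 22, which 0.0288% of all probes showed, Fam25c itself among them. Both skin arrays lay above the 28 others, which 2.87% of all probes showed. These shares are given for scale only. The 4 tissues were taken from the order of Fam25c itself, and the gene was chosen as high in skin and stomach.

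The other 9 tissues were far lower for Fam25c. Their 18 arrays ran from -4.08 in cerebellum to -2.03 in bone, and the 9 tissues overlapped their neighbours in the order, apart from small intestine and brain cortex. Bone (-3.42 and -2.03) and fat (-3.95 and -2.53) had the widest spread, in tissues whose 2 arrays correlated at 0.85 and 0.67 over all probes, below the 0.95 of skin and the 0.98 of stomach. Skin exceeded the mean of the other 14 tissues by 6.65 ± 0.29 (SE), bladder by 5.44 ± 0.29, stomach by 5.22 ± 0.29, liver by 4.42 ± 0.29 and eyes by 2.86 ± 0.29. The mean of skin was 1.13 ± 0.40 (SE) above that of bladder, the mean of bladder 0.20 ± 0.40 above that of stomach, and the mean of stomach 0.75 ± 0.40 above that of liver. The gap of bladder to stomach was smaller than the pooled SD of 0.43 between arrays of a tissue.

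**Figure D1:**
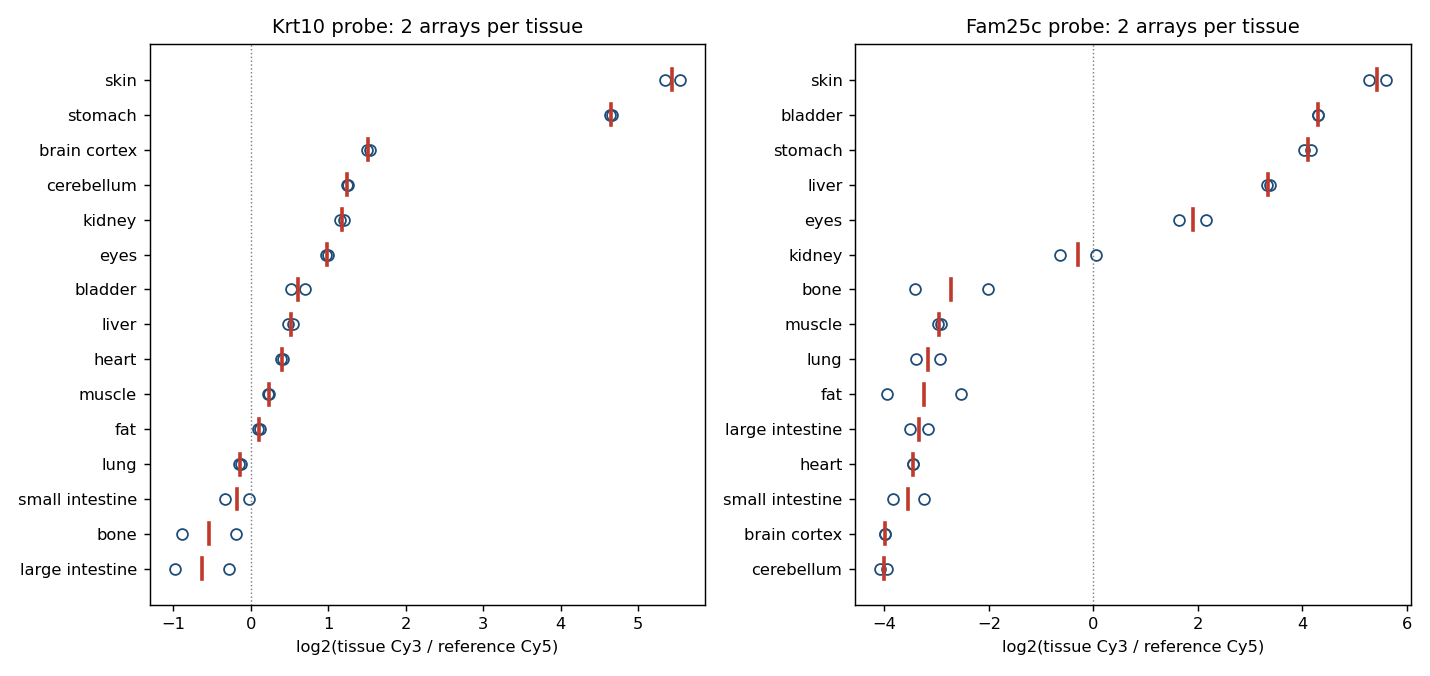
Levels of the Krt10 probe (left) and the Fam25c probe (right) in 15 tissues, as log2 of tissue Cy3 over reference Cy5; open circles are the 2 arrays of a tissue and red bars their mean. Krt10 stands high in skin (mean 5.44) and stomach (4.65) and next in brain cortex (1.52), whereas Fam25c is also high in bladder (4.30), liver (3.35) and eyes (1.90).

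The same levels can be set beside other tissues of the same slide, as a description, since both genes were chosen by these levels. On the slide that carried both skin arrays, muscle replicate 2 and small intestine replicate 1 read 0.24 and -0.02 for Krt10 and -2.92 and -3.84 for Fam25c. On the slide of both stomach arrays, small intestine replicate 2 and large intestine replicate 1 read -0.33 and -0.29 for Krt10 and -3.24 and -3.51 for Fam25c. Bladder shared its slide with kidney, and liver shared its slide with heart, where Fam25c read -3.45 and -3.46. Skin and stomach were on different slides scanned on the same day, so no slide held both.

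The reference channel of both probes moved with the tissue channel, although the reference RNA was the same on every array. For Krt10 the Cy3 mean signal was 75719 and 76636 scanner units in skin and 72882 and 89753 in stomach, against 153 to 2485 on the other 26 arrays. Cy5 of the same spots was 14024 and 13275 in skin and 14090 and 15478 in stomach, against 1036 to 1772 on the other 26. The mean Cy5 signal was therefore 10.3 times the median of the other 26 arrays in skin and 11.2 times in stomach. On the skin slide, muscle replicate 2 and small intestine replicate 1 had Cy5 signals of 1257 and 1036. None of the spots was saturated, and both probes were well above background in both channels on all 30 arrays.

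Fam25c showed the same relation in steps. Cy3 was 111694 and 103018 in skin, 110813 and 123157 in bladder, 40386 and 54330 in stomach, 16581 and 14185 in liver and 8211 and 6276 in eyes, against 105 to 1865 on the other 20 arrays. Cy5 was 22057 and 20318 in skin, 14821 and 16702 in bladder, and 10993 and 12381 in stomach. It was 6964 and 6158 in liver and 5701 and 5468 in eyes, where the other 20 arrays ran from 3477 to 5826. Over the median of those 20, Cy5 was thus 4.13 times in skin, 3.07 times in bladder, 2.28 times in stomach, 1.28 times in liver and 1.09 times in eyes. The order of these 5 tissues in Cy5 was their order in the log2 ratio.

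**Figure D2:**
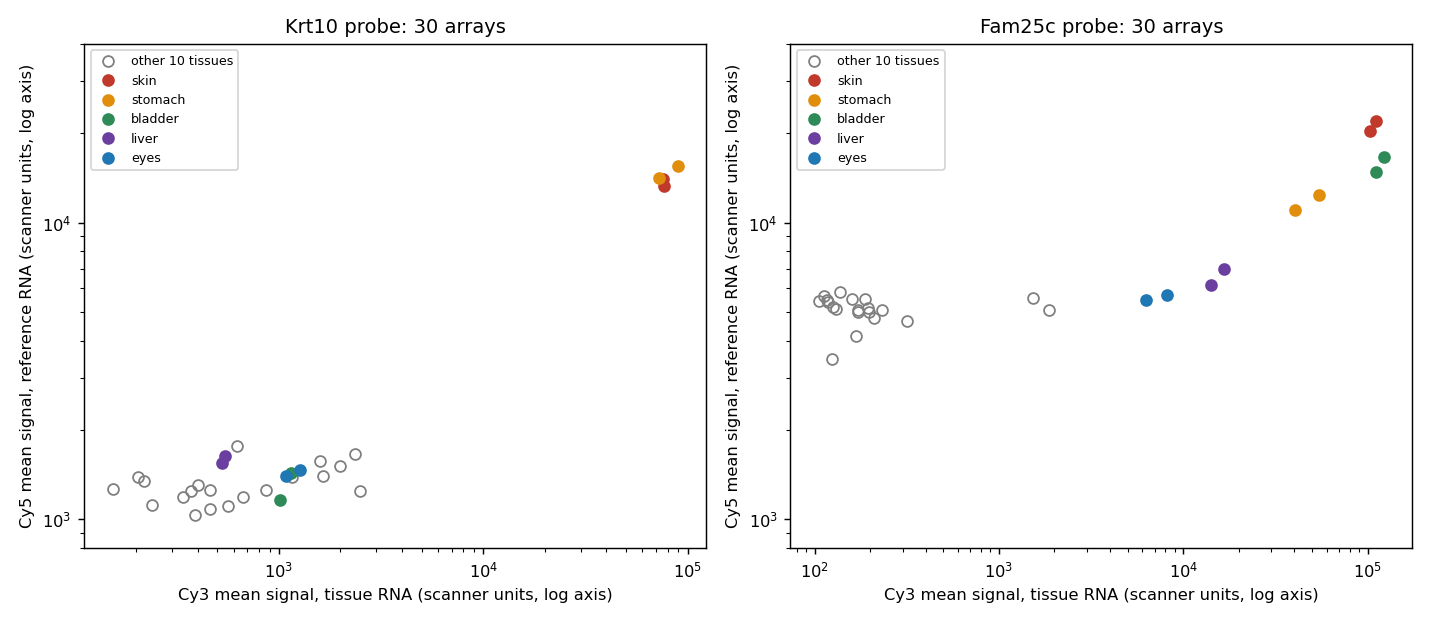
Cy5 mean signal of the shared reference against Cy3 mean signal of the tissue for the Krt10 spot (left) and the Fam25c spot (right), 1 point per array, both axes logarithmic in scanner units. Cy5 lies between 1036 and 1772 for Krt10 except on the skin and stomach arrays, and for Fam25c it climbs from liver through stomach and bladder to skin.

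Probes other than these had it too: of 973 combinations of a probe and a tissue with a mean Cy3 of at least 30000 in that tissue and a median under 2000 on the other arrays, 942 had more Cy5 signal in that tissue, and the median over all 973 was 11.6 times. The reason for the shared movement was not tested. A higher Cy5 signal makes the raw ratio of Cy3 to Cy5 smaller, but loess also shifts the ratio with brightness. A level from Cy3 alone was therefore set beside the ratio. That level was quantile-normalised, so the 2 measures differ in scaling as well as in the use of Cy5. In quantile-normalised Cy3 alone, skin exceeded the mean of the other 14 tissues by 6.90 for Krt10 and by 7.45 for Fam25c, and stomach by 6.56 and 5.88. Stomach exceeded brain cortex for Krt10 by 8.78-fold in the ratio and by 60.8-fold in Cy3. The lead of skin over stomach for Krt10 was 1.73-fold in the ratio and 1.25-fold in Cy3. For Fam25c the lead of skin over bladder was 2.19-fold and 1.33-fold, and that of bladder over liver was 1.94-fold and 7.84-fold. With arrays centred on the median in place of loess, Krt10 was higher in skin than stomach by 0.14 on the log2 scale, and Fam25c was higher in bladder than in skin by 0.23, the reverse of the order above. Which of skin and bladder was highest for Fam25c was therefore not settled by these arrays. For Krt10 the mean Cy3 signal before scaling was 81317 in stomach and 76177 in skin, so the order of these 2 tissues was not settled either.

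Concentration in few tissues was expressed as information in bits over the 15 tissue means, from 0 for equal ratios to 3.91 for a gene found in a single tissue. Krt10 scored 1.63 bits and Fam25c 1.80 bits, against a median of 0.16 over all probes tested, and 2.53 and 2.05 bits in Cy3 alone. The 2 patterns were related with a Pearson r of 0.66 and a Spearman rho of 0.33 over the 15 tissue means. Both numbers describe 15 tissues that share arrays between the 2 probes.

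Genes that take part in stratified epithelia were drawn from 7 lists, chosen with earlier results of these arrays known. Of 181 list genes other than Krt10 and Fam25c, 21 had a probe with a symbol that passed the filter. None of the 10 keratins of mucosal stratified epithelium had one. A gene was called higher in a tissue when it exceeded the mean of the other 14 by at least 2 on the log2 scale with an adjusted p under 0.05 in limma. In skin 12 of 21 were called, against 3.62% of all probes, and in stomach 17 of 21 against 3.85%. With scan day as a random block 11 were called in skin and 14 in stomach, and with median centring 10 and 13. In bladder 5 of 21 were called against 2.34%, and in eyes 4 of 21 against 5.49%. In liver 0 of 21 were called against 5.40%, and 0 were higher at an unadjusted p under 0.05. Called lower by the same rule were 1 of 21 in eyes (Nipal4), against 0.851% of all probes, and 2 of 21 in liver (Dst and Nipal4), against 4.44%. With median centring 0 were lower in eyes. In liver 5 were lower with a normexp offset of 10, and 4 with processed signals, Cy3 alone or the authors' table. All probes called lower in liver rose as well with that offset, from 933 to 1302. The median difference of the 21 was 2.66 in skin and 3.52 in stomach, where all probes had medians of -0.06 and -0.09, and it was -0.12 in bladder, -0.17 in eyes and -0.77 in liver.

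Cornified envelope genes build the protein shell of dead surface cells. All 3 measured, Lce1a2, Lce6a and Sprr1a, were higher in skin and in stomach. Lce1a2, which encodes a late envelope protein, exceeded the mean of the other 14 tissues by 4.39 ± 0.15 (SE) in skin and 3.94 ± 0.15 in stomach, with limma adjusted p of 4.84e-14 and 1.92e-13. Like Krt10 it stayed low in bladder, at 0.66 on the log2 ratio scale against 5.18 in skin. Sprr1a, a small proline-rich precursor of the envelope, was higher in bladder as well, by 4.17 ± 0.29 (adjusted p 5.75e-09), as Fam25c was. None of the 3 was called in liver or eyes.

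Cell adhesion and basal layer genes spread more widely. Pkp1, a plaque protein of desmosomes, exceeded the other tissues by 5.29 ± 0.28 in skin, 3.68 ± 0.28 in stomach and 4.16 ± 0.28 in eyes (limma adjusted p 5.08e-11, 7.28e-09 and 6.67e-10). Dst, a linker of keratin filaments to hemidesmosomes, was called in skin (4.13 ± 0.24) and bladder (2.23 ± 0.24).

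Clade B serpins, intracellular protease inhibitors of which many sit in surface epithelia, differed from gene to gene. Of 11 measured, 8 were called in stomach, 5 in skin, 3 in eyes, 1 in bladder and 0 in liver. Serpinb2 exceeded the other tissues by 6.15 ± 0.45 in skin and 4.59 ± 0.45 in stomach (limma adjusted p 4.34e-09 and 1.95e-07). Serpinb3c exceeded them by 6.30 ± 0.10 in stomach and 2.89 ± 0.10 in eyes but by 0.04 ± 0.10 in skin (adjusted p 0.771). Serpinb5 was called in skin, stomach, bladder and eyes, 4 of the 5 tissues where Fam25c was high, and was not well above background on either liver array.

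Barrier lipid genes and the regulator Elf3 completed the list. Abca12, the lipid transporter of lamellar granules, was called in skin (3.39 ± 0.28) and stomach (3.52 ± 0.28). Nipal4, which is needed for epidermal lipid synthesis, was called in skin, stomach and bladder, by 4.25 ± 0.31, 3.30 ± 0.31 and 4.30 ± 0.31. Sptssb, a subunit of the enzyme that starts sphingolipid synthesis, was called in stomach (5.61 ± 0.33) and bladder (4.58 ± 0.33) and was not well above background on either skin array. Elf3, an epithelial transcription factor, was called in stomach by 2.22 ± 0.32, and its highest tissues were large and small intestine.

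**Figure D3:**
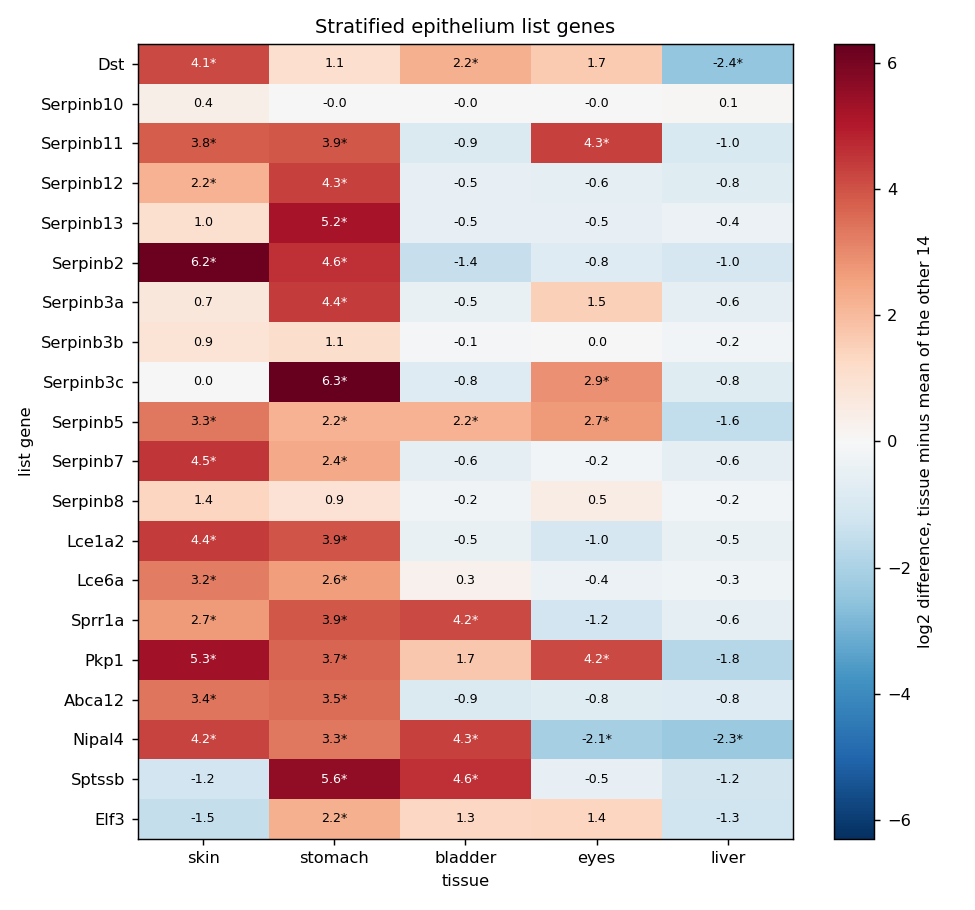
Log2 difference of 20 list genes between a tissue and the mean of the other 14, for skin, stomach, bladder, eyes and liver. Cells hold the rounded difference, and a star marks an adjusted p under 0.05 in limma together with a difference of at least 2 in size; skin and stomach hold 12 and 16 starred increases and liver none.

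Between skin and stomach themselves, 9.78% of all probes were higher in skin and 9.60% in stomach (limma adjusted p under 0.05 and at least 1 on the log2 scale). These were 2056 and 2019 probes, and with median centring 1162 and 2231. Of the 21 list genes, Dst, Serpinb7 and Pkp1 were higher in skin, by 2.86 ± 0.33, 1.99 ± 0.16 and 1.50 ± 0.38. The 7 higher in stomach were Sptssb, Serpinb3c, Serpinb13, Elf3, Serpinb3a, Serpinb12 and Sprr1a, where skin minus stomach ran from -5.84 to -1.15 for the last 6. Sptssb was well above background in stomach alone of the pair (limma adjusted p 4.7e-09), so the size of its difference is not given. The other 11 were not called, among them Lce1a2 at 0.42 ± 0.20 (adjusted p 0.131) and Lce6a at 0.55 ± 0.33 (adjusted p 0.243).

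Markers of other cells were present in the tissues where Krt10 and Fam25c were high. All 3 keratinocyte markers measured (Sprr1a, Pkp1 and Serpinb5) were called in skin and in stomach, 2 of 3 in bladder and in eyes, and 0 of 3 in liver. In skin 5 of 6 skeletal muscle markers were called, and they differed between the skin arrays, with an SD of 2.61 for Mstn and 1.87 for Actn3, where Krt10 had an SD of 0.14 and Fam25c of 0.22. In eyes 3 of 6 skeletal muscle markers were called, and in stomach, bladder and liver 0 of 6. In stomach the glandular marker Gkn3 (4.45 on the log2 ratio scale) and the simple epithelium marker Vil1 (4.61) were both called. All 6 hepatocyte markers were called in liver and 0 of 6 in skin, stomach, bladder or eyes. The urothelium marker with a symbol, Upk3bl, was called in eyes (4.04 on the log2 ratio scale) and not in bladder, where it read 1.57 and 1.21 on the 2 arrays, above the means of the other 13 tissues (-1.44 to -0.58). The part of these cells in the levels of Krt10 and Fam25c was not tested.

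The genes whose tissue pattern came closest to each of the 2 were listed from all probes with a symbol past the filter, by Pearson r over the 15 tissue means and with no test. Krt10 came closest to Teddm3 (r 0.95), 2310050C09Rik (0.94), Pinlyp (0.92), Sdr16c6 (0.91), Serpinb7 (0.91) and Lce6a (0.90), followed by Serpinb3b, Serpinb8, Lce1a2 and Rnf225 (0.86 to 0.89). In 9 of these 10 the highest tissue was skin and the next stomach, and for Serpinb3b the order was reversed. Teddm3 read 3.76 in skin and 3.54 in stomach and, like Krt10, was next highest in brain cortex, at 0.97. For the other 9 genes brain cortex lay between -0.58 and 0.27. The -0.58 was that of Lce6a, which was not well above background on either brain cortex array. Each level is relative to the reference signal of its own probe, so patterns and not levels are compared between genes. Teddm3 was well above background on both arrays in 3 tissues, Lce1a2 in all 15.

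Fam25c had fewer close matches. Of 21024 other probes 2 reached an r of 0.9 with Fam25c, against 43 with Krt10, and neither of those 2 had a symbol. The closest with a symbol were 2200001K16Rik (r 0.87), Cysrt1 (0.79), Mir205hg (0.79), 4930533B18Rik (0.78) and H60c (0.77), followed by Lce6a, Rnf225, Rpl35a, Sprr1a and Aim1 (0.73 to 0.75). 2200001K16Rik read 3.77 in skin, 3.02 in bladder, 2.13 in eyes and 2.06 in stomach but 0.43 in liver. Of the 10, Aim1 had the highest liver level, at 0.76 against 2.68 in its own skin arrays, where Fam25c read 3.35 in liver and 5.44 in skin. Lce6a and Rnf225 were among the 10 closest to both genes. TATAAA between 40 and 20 bases before the start was found in 0 of the 10 promoters of the genes closest to Krt10 and in 0 of the 9 promoters available for those closest to Fam25c. TGACTCA was found in 2 of the 10 (Serpinb7 and Serpinb8) and in 2 of the 9 (Cysrt1 and Sprr1a), against 5.2% of all promoters.

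**Figure D4:**
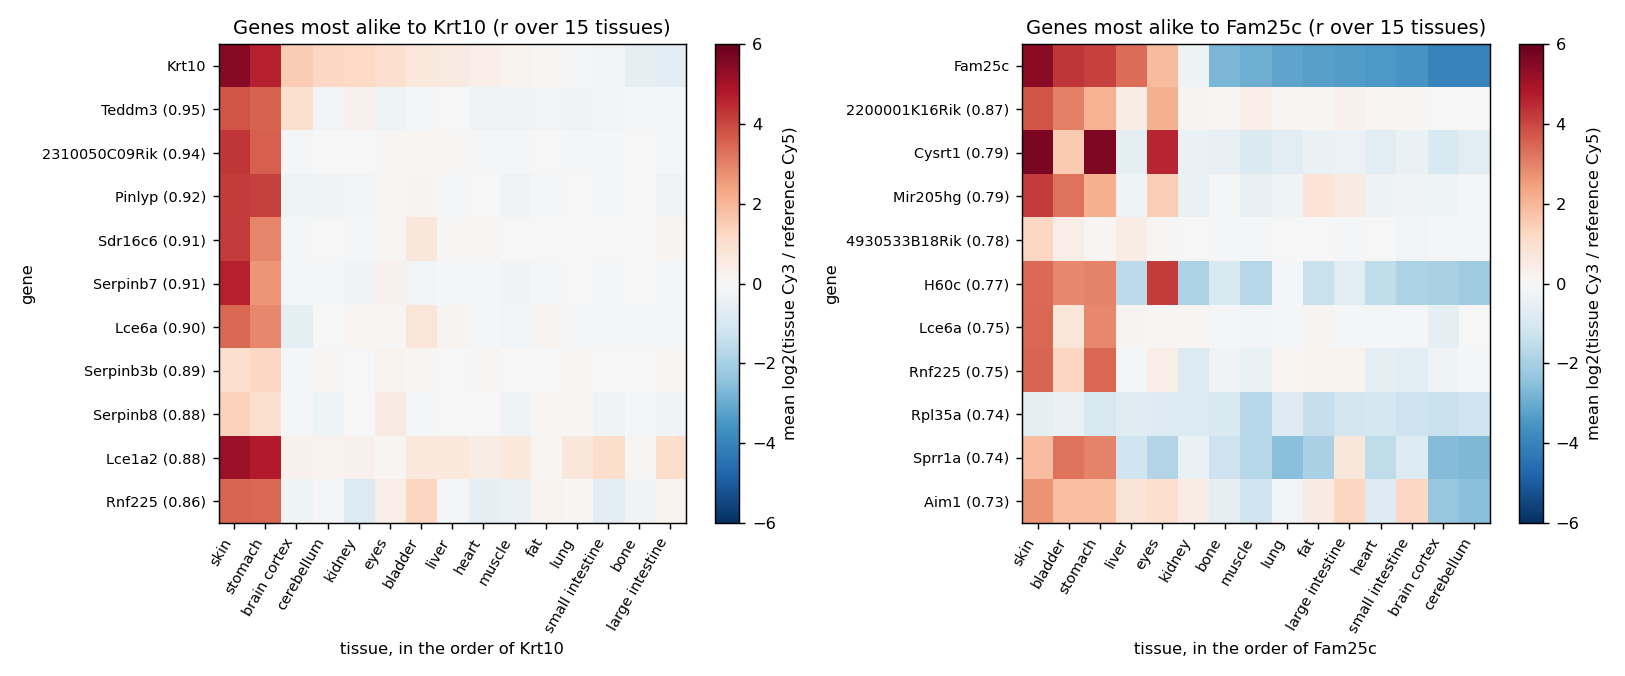
Mean log2 of tissue Cy3 over reference Cy5 in 15 tissues for Krt10 (left) and Fam25c (right) in the top row and for the 10 genes of closest pattern below, with Pearson r in parentheses; tissues follow the order of the top row. Of the genes closest to Krt10, 8 read 2.66 or more in skin and in stomach, Serpinb3b and Serpinb8 read 0.97 to 1.40 there, and all 10 are at or below 1.29 elsewhere; those closest to Fam25c are near or below 1 in liver.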

How the data were processed

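Each array was scanned with Agilent Feature Extraction 9.5.1.1, and the authors deposited the scanner intensities of both channels with spot flags (other columns, 0 or 1), on an array design built on mm7. The deposited value table holds log10 Cy3 levels that the authors corrected for the deviation of Cy5 (slopes of 1.00 on log10 Cy3 and -1.00 on the Cy5 deviation over 8987 bright probes); it was used as an alternative. Here mean signals were background-corrected by normexp with an offset of 50 and normalised within each array by loess, with control spots given no weight (limma 3.58.1, R 4.3.3); 475 outlier spots were removed. Of the 25030 probes of the value table, 21026 were well above background in Cy3 on both arrays of at least 1 tissue and were tested, with 1 coefficient per tissue over 30 arrays and Benjamini-Hochberg adjustment within each comparison. A symbol was available for 5622 of the 25030 probes, from the study's lists, updated through RefSeq synonyms. A list gene with several probes was read by its brightest in Cy3. Named genes were Krt10, Fam25c, the list genes with a symbol and the 10 closest patterns of each; 1 list gene is counted but not reported here by name. The members and lists were chosen with earlier results of these data known. Where a tissue is below background its probe value is near a floor, so differences are understated. The median Cy3 signal per array ran from 85.7 to 175 units, and 2 arrays per tissue limit the precision. The fit was tested on simulated data. Promoters are from RefSeq, GRCm38.p6. Alternatives were other background and normalisation settings, filters, replicate, slide and scan day blocks, and left-out arrays.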

Additional observations from a re-analysis of the deposited data

How the results depend on the processing

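Over 17 results, 182 of 214 alternative values stayed within 1.5 times the main count or within 1 SD of the main value, 32 moved beyond that and 0 changed sign. With the signals as processed by the scanner software, the probes higher in skin, stomach, bladder and eyes numbered 1227, 1262, 875 and 1863 in place of 761, 810, 491 and 1154, and with the values of the authors' own table they numbered 1175, 1227, 857 and 1739. The lower calls in skin rose with them, from 180 to 618 and 528, in stomach from 78 to 336 and 291, in bladder from 119 to 340 and 313, in eyes from 179 to 710 and 591, and in liver from 933 to 1967 and 1919 (higher: 1136, 1561 and 1544). Median centring gave 424 probes higher in skin, with the median of all probes at -0.17, and changed the split between skin and stomach from 2056 and 2019 to 1162 and 2231 and that in bladder from 491 and 119 to 690 and 29. With scan day as a random block skin had 755 higher and 333 lower, and stomach 716 and 158. Under the stricter filter 11 list genes were left, of which 7 were higher in skin and 10 in stomach.

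Fam25c in skin minus the other 14 tissues was 7.41 with processed signals and 7.41 with the value table, 5.32 with median centring and 7.45 in Cy3 alone. In stomach it was 5.70, 5.70 and 5.88 with processed signals, the value table and Cy3 alone, and its information was 1.92, 1.92, 1.57 and 2.05 bits with processed signals, the value table, median centring and Cy3 alone. Krt10 was 3.45 in skin and 3.30 in stomach with median centring, with 1.01 bits, and 6.90 and 6.56 in Cy3 alone, with 2.53 bits. Without the 6 fat, bone and large intestine arrays, an alternative chosen after seeing the data, Krt10 was 4.44 in skin and 3.58 in stomach, Fam25c was 6.14 and 4.69, and 12 and 17 list genes were still called. The shift of the member values there goes with a comparison against 11 tissues in place of 14. The cause of the other changes was not tested.

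Leaving out 1 array of the tissue gave 773 to 782 probes in skin, 801 to 804 in stomach and 3309 to 3839 between the 2. The lower calls in stomach were 129 without replicate 1 and 52 without replicate 2 in place of 78, and those in bladder 191 and 85 in place of 119. Krt10 then ran from 4.63 to 4.83 in skin and from 3.87 to 3.89 in stomach, and Fam25c from 6.50 to 6.81 and from 5.16 to 5.29. Replicate numbers pair samples by name alone: the differences between replicate 1 and replicate 2 correlated between tissues at -0.25 to 0.34 (median 0.05), over 0.1 in 32 of 105 tissue pairs. With the replicate block, 4111 probes differed between skin and stomach in place of 4075, and Krt10 in skin stayed at 4.73.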
